A study of Anguilla anguilla with 24 samples.

Results

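The voltage-gated potassium, calcium and sodium channels of the European eel (Anguilla anguilla) were described in brain and liver, in eels fed gold nanoparticles and in control eels. Members were the contigs (assembled transcript sequences) whose gene label, without a leading Cit and the copy suffix, begins with a potassium channel name (kcn), a calcium channel subunit name (cacna, cacnb or cacng), a sodium channel name (scn with a number and a or b) or hcn. The rule used names only and found 112 of 50640 contigs, under 66 labels when letter case is ignored. The copy suffix gives the copy and the number of copies, so that kcnc4.2.2 is copy 2 of 2 of the label kcnc4. RNA was sequenced from the brain and the liver of 12 eels, 6 of which ate food with gold nanoparticles (metallic gold grains on the nanometre scale) over 21 days while 6 were kept as controls. This gave 4 groups of 6 libraries, called control brain, gold-fed brain, control liver and gold-fed liver, and each eel gave 1 library of each tissue. Age, sex, origin and tank of the eels were not given in the sources used here.

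Voltage-gated channels are membrane proteins whose pore opens when the voltage across the membrane changes. In neurons, sodium channels carry the upstroke of the action potential, potassium channels end it and set the firing pattern, and calcium channels turn the electrical signal into calcium entry, transmitter release and gene regulation. Pore-forming alpha subunits work with auxiliary subunits that alter their gating and transport to the membrane. The name rule also brought in relatives that are not gated by voltage in the strict sense, namely inward rectifiers (kcnj), two-pore-domain leak channels (kcnk) and calcium- or sodium-activated channels (kcnn, kcnt). Hepatocytes do not fire action potentials, and their potassium channels are known for roles in membrane potential, cell volume and bile formation.

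Values below are CPM, read counts scaled to library size with TMM factors over all 24 libraries, and are given as mean ± SD over 6 eels. Libraries held 50.3 to 116 M (mega) counted reads, and the TMM factors were 1.99 to 2.17 in brain and 0.424 to 0.566 in liver, so that a comparison between the tissues depends on this scaling. A list of 18 neuron marker contigs summed to 1158 ± 29.6 CPM in control brain and 20.3 ± 2.39 CPM in control liver, and a list of 28 hepatocyte marker contigs to 74054 ± 13791 CPM in control liver. The hepatocyte list stood at 429 CPM in the brain of control eel 3 and between 39.8 and 47.0 CPM in the other control brains. Both tissues thus carried their labelled markers. Contigs differ in length, which is not known here, so levels are compared between groups and not between contigs.

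Most channel contigs were expressed in brain and few in liver. At 1 CPM or more in at least 5 of 6 libraries, 101 of the 112 members were expressed in control brain, where 68.7% of all contigs were, and 99 in gold-fed brain (68.1% of all contigs). In liver, 18 members were expressed in control eels (58.5% of all contigs) and 18 in gold-fed eels (58.6% of all contigs). In control eels 83 members were expressed in brain only by this measure, 18 in both tissues, 0 in liver only and 11 in neither. The gold-fed eels gave 81, 18, 0 and 13 members in the same order. Those at the edge of the threshold differed between the diets. They were kcne4, kcnj2 and kcnk1.1.2 (expressed in control brain only), kcnh2b (in gold-fed brain only), cacna1d.1.5 (in control liver only) and scn2b (in gold-fed liver only).

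Summed over all members, the channels made up 1261 ± 59.9 CPM in control brain, 1308 ± 52.6 CPM in gold-fed brain, 320 ± 95.9 CPM in control liver and 315 ± 69.8 CPM in gold-fed liver. A pair of contigs, kcnc4.2.2 and kcnt1, held much of the liver sum, which was 155 ± 15.9 CPM in control liver without them. The liver mean was under 5% of the brain mean for 68 members, between 5% and 25% for 28, between 25% and 100% for 12 and over 100% for 4. The median of these percentages over the members was 3.74% in control eels and 4.05% in gold-fed eels. The neuron marker list stood at 1.75% and 1.77%, which is another measure, the liver sum of the list over its brain sum. The part of nerve fibres or other non-hepatocyte cells in the liver values was not tested. In such bulk samples fewer cells of a type and less RNA per cell cannot be told apart.

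In control eels 111 members could be tested between the tissues, and 105 were higher in brain (edgeR, adjusted p below 0.05), where 40.1% of all contigs tested were higher in brain. Only 4 members were higher in liver, against 34.9% of all contigs, namely kcnc4.2.2, kcnt1, kcnk6 and KCNQ1. The median log2 fold change of liver over brain was -4.78 over the members and -0.11 over all contigs. The brain and liver values did not overlap for 102 members that were higher in brain (33.2% of all contigs) and 3 that were higher in liver (25.3% of all contigs). The members without a call were cacna1d.2.5, at -0.13, and kcnj8, at -0.50, and cacna1e.4.4 had too few reads to be tested. In gold-fed eels 105 of 112 members were higher in brain (39.7% of all contigs) and 4 in liver (33.3% of all contigs), and 108 members were called in the same direction in both diets. Their brains and livers did not overlap for 102 members higher in brain (32.1% of all contigs) and 3 higher in liver (24.3% of all contigs). With library totals in place of TMM factors the median over all contigs moved to -2.26, and 109 members were higher in brain and 1 in liver. cacna1d.2.5 and kcnj8 were among the 109, so parity between the tissues depends on the scaling. Of all 49741 contigs tested, 38821 were then higher in brain and 5412 in liver, so most contigs moved to the brain side.

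**Figure D1:**
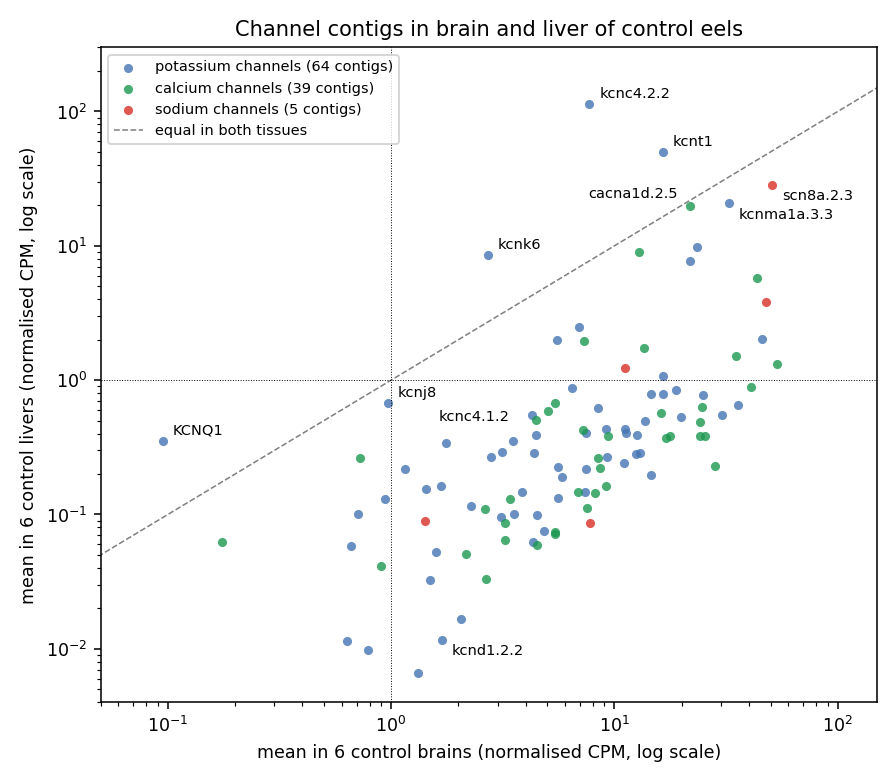
Mean level of potassium, calcium and sodium channel contigs in 6 control brains (x axis) and 6 control livers (y axis), in normalised CPM on log scales, coloured by channel class. Dotted lines mark 1 CPM and the dashed line equal levels; 4 contigs lie above the dashed line, led by kcnc4.2.2, and the others lie below it.

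Among the pore-forming subunits of voltage-gated potassium channels, those of the Kv1, Kv2 and Kv4 families were higher in brain in every contig. The delayed rectifier and A-type subunits of Kv1 set spike threshold and repolarisation. The Kv1 contig kcna4, an A-type subunit, read 24.9 ± 2.60 CPM in control brain (20.5 to 28.6, median 24.97) and 0.782 ± 0.272 CPM in control liver (0.322 to 1.05, median 0.825), a log2 fold change of -5.00 (SE 0.25, adjusted p = 3.09e-10). Its brain and liver values were far apart in both diets. kcnb2, a Kv2 subunit of the slow delayed rectifier in cell bodies, read 13.03 ± 3.33 CPM in control brain and 0.285 ± 0.145 CPM in control liver (-5.45, SE 0.33, adjusted p = 2.09e-09). Kv4 channels carry the transient current of dendrites, and all 6 contigs were higher in brain, those of kcnd2 at -5.51 to -4.69. The most read of them, kcnd2.3.4, had 11.2 ± 2.37 CPM in control brain and 0.433 ± 0.315 CPM in control liver.

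Several contigs were at the limit of detection in liver. kcnd1.2.2, another Kv4 contig, had 1644 reads in the 6 control brains together and 2 in the 6 control livers, of which 5 had 0 reads. The ratio of brain to liver after normalisation was 169, with an exact 95% interval of 46.7 to 1397 that covers counting error only. kcnh2b, of the ERG channels that repolarise slowly firing cells, had 1316 and 2 reads (ratio 135, 37.4 to 1118), and kcnn3.1.4, of the small-conductance calcium-activated channels, 2007 and 3 reads (ratio 138, 47.0 to 668). These contigs were nearly undetected in control liver.

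The Kv3 family supports fast spiking and was split between the tissues, with 3 contigs higher in brain and 1 in liver. Also split were the Kv7 family (5 and 1), the leak channels (6 and 1) and the kcnt contigs (1 and 1). kcnc2 read 18.9 ± 3.34 CPM in control brain and 0.840 ± 0.542 CPM in control liver, and KCNC2, the same label in capitals, 1.49 ± 0.235 and 0.0328 ± 0.0802 CPM. Of the 2 contigs of kcnc4, which encodes the fast inactivating Kv3 subunit, kcnc4.1.2 was higher in brain and kcnc4.2.2 in liver. Silent subunits form no channel of their own and join Kv2 subunits. All 6 of their contigs were higher in brain, with log2 fold changes from -6.18 for kcns2.1.2 to -1.47 for kcns2.2.2, which was expressed in liver too.

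Kv7 channels carry a slow current that damps repetitive firing in neurons, to which kcnq3 contributes, while KCNQ1 serves heart and epithelia. Both contigs of kcnq3 were higher in brain. kcnq3.1.2 read 16.5 ± 2.58 CPM in control brain (14.02 to 20.8, median 15.7) and 0.785 ± 0.231 CPM in control liver (0.437 to 1.05, median 0.818), at -4.38 (SE 0.22, adjusted p = 3.23e-10). Its brains and livers did not overlap, whereas KCNQ1 went the other way. The 8 contigs of the EAG and ERG family all were higher in brain, with kcnh7 at 16.4 ± 1.96 against 1.08 ± 0.196 CPM (-3.92, SE 0.17, adjusted p = 7.07e-11).

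Auxiliary subunits followed the same order. The 3 KChIP contigs, calcium-binding partners of Kv4, were higher in brain, with kcnip2 at 14.5 ± 1.83 CPM against 0.783 ± 0.148 CPM in control liver (-4.21, SE 0.17, adjusted p = 4.42e-11). kcnab1, a cytoplasmic beta subunit of Kv1, was higher in brain at -5.78 (SE 0.46, adjusted p = 4.20e-08). kcne4, a single-pass subunit that inhibits several Kv channels, read 1.16 ± 0.156 CPM in control brain and 0.219 ± 0.160 CPM in control liver (-2.44, SE 0.40, adjusted p = 7.78e-05).

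Calcium-activated potassium channels of large conductance (BK) open on voltage and calcium together. The 3 contigs of the pore label kcnma1a were among the members nearest to parity, at -1.48 to -0.64. KCNMA1, a pore label in capitals, stood at -3.30, with 0.658 CPM in control brain. The 7 BK contigs summed to 92.2 ± 6.27 CPM in control brain and 39.5 ± 15.3 CPM in control liver, 42.8% of the brain value. The pore contig kcnma1a.3.3 read 32.5 ± 2.88 CPM in control brain (28.9 to 36.4, median 31.7) and 20.7 ± 7.83 CPM in control liver (9.77 to 32.4, median 21.1). Its groups overlapped, and the log2 fold change was -0.64 (SE 0.23, adjusted p = 0.0192). The call was lost without eel 3 or eel 6, at an adjusted p of up to 0.0561. Over all alternatives, library totals included, kcnma1a.3.3 ranged from -2.77 to -0.47. Of the beta4 subunit, which slows the channel in neurons, the contigs kcnmb4.1.3, kcnmb4.2.3 and kcnmb4.3.3 stood at -2.80, -3.48 and -3.77. Each of the 5 SK contigs was higher in brain, with kcnn3.4.4 at 19.96 ± 5.91 against 0.534 ± 0.499 CPM.

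Inward rectifiers hold the resting potential. The G-protein-gated kcnj6.1.2 read 35.9 ± 2.39 CPM in control brain (32.6 to 39.1, median 36.3) and 0.657 ± 0.134 CPM in control liver (0.517 to 0.872, median 0.626), with the smallest adjusted p of the members (-5.76, SE 0.16, adjusted p = 1.76e-12). kcnj13, a rectifier of epithelia, overlapped between the tissues at 6.95 ± 4.12 and 2.48 ± 0.570 CPM, though it was called higher in brain at -1.48 (SE 0.34, adjusted p = 0.00112). kcnj8, a pore of ATP-sensitive channels known from vessel walls, overlapped too and had no call, at 0.963 ± 0.0894 and 0.676 ± 0.230 CPM. Of the leak channels, kcnk1.2.2 was the steadiest member of control brain, at 45.7 ± 2.81 CPM (SD 6.14% of the mean), against 2.03 ± 0.790 CPM in control liver. kcnk6 alone among the 7 leak channel contigs was higher in liver.

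Many voltage-gated calcium channels, though not all types, consist of an alpha1 pore and the auxiliary beta and alpha2delta subunits. Of the 16 alpha1 contigs 14 were higher in brain. R-type cacna1e.3.4 read 28.2 ± 5.62 CPM in control brain (18.2 to 34.0, median 29.2) and 0.228 ± 0.126 CPM in control liver (-6.94, SE 0.33, adjusted p = 1.89e-10). T-type cacna1h.1.2, a channel that opens at low voltage, was expressed in both tissues, at 43.4 ± 6.55 CPM in control brain (30.5 to 49.3, median 45.1) and 5.80 ± 0.851 CPM in control liver (4.62 to 7.08, median 5.89). Its groups did not overlap (-2.90, SE 0.15, adjusted p = 6.09e-10).

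L-type cacna1d.2.5 was the calcium channel contig nearest to parity, at 21.7 ± 3.52 CPM in control brain (18.6 to 28.2, median 21.3) and 19.8 ± 3.81 CPM in control liver (15.1 to 24.9, median 18.8). The ranges overlapped widely and the test made no call (-0.13, SE 0.15, adjusted p = 0.460). With library totals cacna1d.2.5 was called higher in brain, as were 109 of 111 members in all. The 5 alpha2delta contigs, which aid transport of the pore to the membrane, lay between -5.53 and -4.53, and cacna2d2.2.2 read 53.6 ± 12.6 CPM in control brain and 1.33 ± 0.315 CPM in control liver. All 12 beta contigs were higher in brain and none was expressed in liver, with CACNB4 at 25.5 ± 2.23 and 0.382 ± 0.266 CPM (-6.06, SE 0.35, adjusted p = 1.71e-09). The gamma labels include relatives known mainly as partners of AMPA glutamate receptors. Their 6 contigs were higher in brain, and cacng4 was expressed in control liver at 1.73 ± 0.722 CPM against 13.6 ± 1.65 CPM in control brain.

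The sodium channel alpha contigs all carried the label scn8a, the pore found at nodes and initial segments of axons. scn8a.3.3 read 47.7 ± 4.09 CPM in control brain (40.3 to 51.8, median 48.6) and 3.80 ± 1.02 CPM in control liver (2.2998 to 5.32, median 3.78). scn8a.2.3 read 50.9 ± 5.02 CPM in control brain (43.2 to 55.8, median 52.8) and 28.6 ± 3.02 CPM in control liver (23.4 to 31.8, median 29.8). Both were separated without overlap in control eels, at -3.65 (SE 0.19, adjusted p = 5.03e-10) and -0.83 (SE 0.12, adjusted p = 1.84e-05). Over all alternatives, library totals included, scn8a.2.3 ranged from -2.98 to -0.78. In gold-fed eels the tissues overlapped for scn8a.2.3, with 38.9 CPM in the brain and 40.9 CPM in the liver of eel 9. The auxiliary scn2b, a beta subunit, stood at 11.2 ± 2.14 and 1.23 ± 0.442 CPM (-3.19, SE 0.26, adjusted p = 5.35e-08).

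The contigs that were higher in liver were potassium channels, and kcnc4.2.2 led them. It read 7.73 ± 1.48 CPM in control brain (6.33 to 9.86, median 7.13), 115 ± 107 CPM in control liver (35.3 to 324, median 80.0), 10.3 ± 3.37 CPM in gold-fed brain (6.60 to 15.4, median 10.45) and 94.0 ± 65.8 CPM in gold-fed liver (22.3 to 176, median 93.9). All livers exceeded all brains in both diets, while the livers themselves differed several-fold. The log2 fold change was 3.89 (SE 0.49, adjusted p = 5.24e-06) in control eels and 3.20 without control eel 6, whose liver was highest at 324 CPM. The list of 9 erythrocyte marker contigs was also highest in that liver, at 7446 CPM against 1782 to 4294 CPM in the other control livers. In gold-fed livers the list was highest in eel 12, at 3871 CPM, where kcnc4.2.2 read 29.2 CPM; the part of blood cells in the result was not tested.

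kcnt1, a sodium-activated potassium channel pore (Slack), read 16.4 ± 2.17 CPM in control brain (13.8 to 20.4, median 16.1) and 50.2 ± 9.98 CPM in control liver (41.3 to 65.3, median 45.8), a log2 fold change of 1.62 (SE 0.15, adjusted p = 2.47e-07). Its relative kcnt2 went the other way, at 4.52 ± 1.24 CPM in control brain and 0.0983 ± 0.119 CPM in control liver. kcnk6, a leak channel subunit, read 2.71 ± 0.740 CPM in control brain (1.86 to 3.86, median 2.69) and 8.60 ± 1.18 CPM in control liver (6.91 to 10.2, median 8.39), at 1.67 (SE 0.19, adjusted p = 2.45e-06). Neither overlapped between the tissues. KCNQ1 was low throughout, at 0.0949 ± 0.0454 CPM in control brain and 0.355 ± 0.156 CPM in control liver, and its groups overlapped (1.88, SE 0.44, adjusted p = 0.00141).

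These directions depended on the scaling in all but 1 case. With library totals, kcnc4.2.2 stayed higher in control liver, at 1.66 (adjusted p = 0.00148), whereas kcnt1 stood at -0.52 (adjusted p = 0.0162), kcnk6 at -0.48 (adjusted p = 0.0407) and KCNQ1 at -0.26 (adjusted p = 0.588), beside a median of -2.26 over all contigs. Each of the 4 lay above that median, but measuring from the median puts the TMM scaling back and adds no support.

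**Figure D2:**
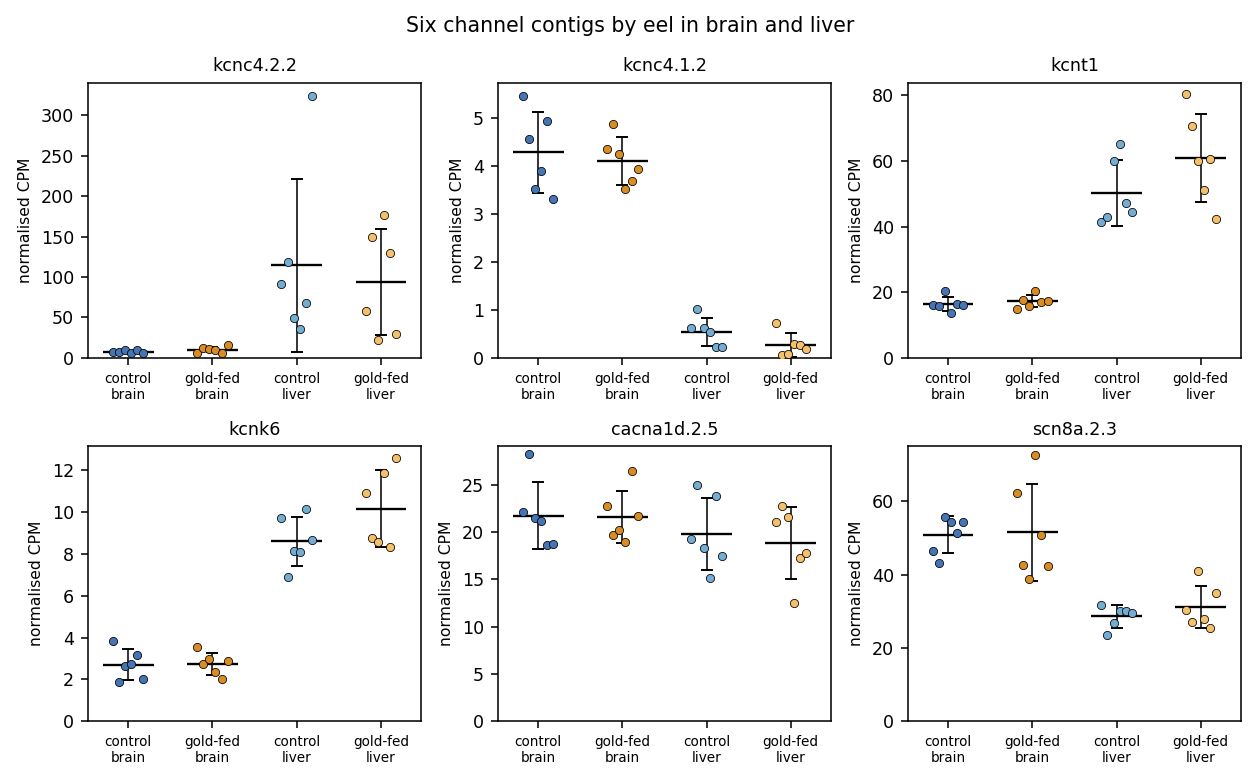
Normalised CPM (y axis) of 6 channel contigs in each library of the 4 groups; points are eels, horizontal lines means and bars SD over 6 eels. kcnc4.2.2, kcnt1 and kcnk6 are higher in every liver than in any brain, kcnc4.1.2 is higher in every brain, and cacna1d.2.5 overlaps between the tissues.

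Contigs that share a label differed widely in their tissue pattern for some labels and little for others. Of 25 labels with several contigs, 7 had tissue log2 fold changes that spanned more than 2 units, 13 spanned less than 1, and the median span was 0.965. The span was 6.86 for kcnc4, whose contig kcnc4.1.2 read 4.29 ± 0.844 CPM in control brain and 0.547 ± 0.290 CPM in control liver (-2.96, SE 0.33, adjusted p = 1.38e-06), opposite to kcnc4.2.2. It was 5.66 for scn8a, from scn8a.1.3, with 7.79 ± 0.845 CPM in control brain and 0.0867 ± 0.0577 CPM in control liver, to scn8a.2.3. For cacna1d it was 5.43, from cacna1d.3.5 at -5.55 to cacna1d.2.5. The low ends of some spans rest on few liver reads, such as cacna1d.3.5 at 0.0644 CPM in control liver and kcnn3.1.4 with 3 reads in the 6 control livers. The span was also over 2 units for kcns2 (4.72), cacnb2 (3.25) and kcnn3 (2.54), while the 2 contigs of cacng2 differed by 0.01. Whether such contigs are parts of 1 transcript, isoforms or gene copies was not given in the sources used here, and reads could be split between them. kcnc4 was the only one of the 25 with contigs called in opposite directions.

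**Figure D3:**
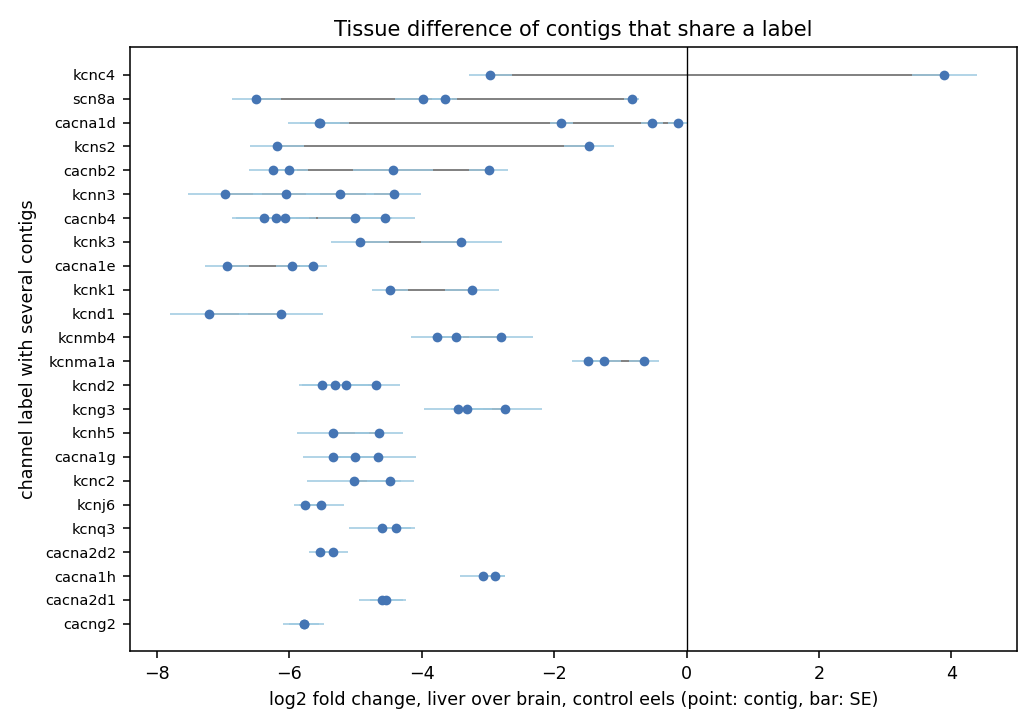
Log2 fold change of liver over brain in 6 control eels (x axis) for tested contigs of labels with several contigs (y axis); points are contigs, pale bars SE and grey lines the span of a label. The span is widest for kcnc4, on both sides of 0, followed by scn8a and cacna1d.

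The proteins that channels work with were taken from lists of names outside the members. Counts and values between the tissues are for control eels, where 40.1% of all contigs tested were higher in brain and 34.9% in liver. Of 57 tested contigs of clustering and accessory proteins, 53 were higher in brain and 2 in liver. The latter were dlg3.1.5, a scaffold that binds channel tails, at 1.43, and rem1, a small GTPase that inhibits calcium channels, at 2.55. In gold-fed eels 52 of 56 tested contigs of this list were higher in brain (39.7% of all contigs) and 2 in liver (33.3% of all contigs). The 4 sodium pump contigs were all higher in brain, as were 12 of 13 calcium handling contigs, and itpr1.1.2, an intracellular calcium release channel, was higher in liver at 0.58. In gold-fed eels itpr1.1.2 stood at 0.18 and edgeR made no call (adjusted p = 0.340). Of 8 leak and other cation channel contigs 5 were higher in brain, with nalcn at -6.37, and the 2 of tpcn1, an endolysosomal channel, were higher in liver. Directions depend on the scaling here too, since library totals moved the median over all contigs from -0.11 to -2.26. They turned the member kcnt1 from 1.62 to -0.52, and dlg3.1.5, itpr1.1.2 and the tpcn1 contigs stood below 1.62. The 5 contigs named in protein style for calcium and BK channels were all higher in brain. For gold feeding edgeR called 0 contigs of these lists in either tissue (0.00201% of all contigs in brain and 0.0% in liver). At an unadjusted p below 0.05, 3 of the 4 sodium pump contigs were higher in gold-fed brain (3.37% of all contigs). They were atp1a2a at 0.62, with 0.133 CPM in control brain, and the contigs of atp1b3 at 0.15 and 0.16, while atp1b2a stood at -0.06. Of the calcium handling contigs 1 was lower in brain (4.39% of all contigs) and 1 higher in liver (4.41%).

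edgeR called no channel contig for gold feeding in brain. All 112 members were tested and edgeR called 0 at an adjusted p below 0.05 (0.00201% of all contigs), while 6 had an unadjusted p below 0.05 (7.75% of all contigs), 3 in each direction. No member separated the 6 gold-fed from the 6 control brains, where 0.255% of all contigs did upward and 0.253% downward. The median log2 fold change was 0.02 over the members and 0.00 over all contigs, and -0.01 and -0.03 with library totals. limma-voom called 0 members, and DESeq2 called 1 (0.357% of all contigs), kcnj2, at -0.73 (adjusted p = 0.0378).

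kcnj2, the classical strong inward rectifier, read 1.77 ± 0.381 CPM in control brain (1.204 to 2.28, median 1.84) and 1.07 ± 0.217 CPM in gold-fed brain (0.889 to 1.48, median 1.03), from 145 to 346 reads per library. The groups overlapped in part, with gold-fed eel 9 at 1.48 CPM. edgeR gave -0.74 (SE 0.18, adjusted p = 0.579), and the value ranged from -0.86 to -0.64 when each eel was left out. Also lower at an unadjusted p below 0.05 were kcnd2.4.4 at -0.29 (SE 0.11) and cacnb4.1.4 at -0.48 (SE 0.21).

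The contigs higher in gold-fed brain at an unadjusted p below 0.05 included kcnq3.1.2 and kcnmb4.2.3. kcnq3.1.2 read 16.5 ± 2.58 CPM in control brain (14.02 to 20.8, median 15.7) and 20.1 ± 1.89 CPM in gold-fed brain (17.6 to 22.8, median 19.95), at 0.26 (SE 0.10, adjusted p = 0.620). kcnmb4.2.3, of the BK beta4 subunit, read 4.47 ± 1.13 CPM (2.53 to 5.44, median 4.88) and 6.17 ± 1.502 CPM (4.39 to 8.94, median 5.95), at 0.45 (SE 0.19, adjusted p = 0.638). The groups of each overlapped. Values of smaller support were 0.20 for cacng3, 0.34 for cacna1g.2.3, 0.40 for kcnc4.2.2, -0.35 for kcnd1.2.2, -0.30 for KCNC2 and -0.45 for kcnd2.1.4. Without eel 12, cacna1g.2.3 stood at 0.22 and kcnc4.2.2 at 0.25.

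In liver 54 of the 112 members had enough reads for the test, and edgeR called 0 (0.0% of all contigs). At an unadjusted p below 0.05 were 4 members (8.41% of all contigs in either direction). All 4 were higher in gold-fed eels, where 4.41% of all contigs were higher and 4.0% lower. Members of both directions were seen in some other edgeR fits, with 2 higher and 2 lower without eel 7. The fit of all 24 libraries had 13 higher and 10 lower of 112. It called 0 members and 229 of all 50455 contigs tested (89 higher and 140 lower). Its filter spans both tissues and so kept members with few liver reads. In control liver 92 members were under 1 CPM on average. In other fits all were higher, with 6 for library totals and 3 for counts summed by label. The same held when eel 4, 5, 9, 10, 11 or 12 was left out. Shares of all contigs at an unadjusted p were taken for the main edgeR fit only. DESeq2 called 0 of the 54, with 6 at an unadjusted p below 0.05 (5 higher and 1 lower). Of all 41793 contigs tested it called 289, with 97 higher and 192 lower in gold-fed eels. limma-voom called 0 members and 0 of all contigs, with 5 members at an unadjusted p below 0.05, all higher. Without the filter on low counts all 112 were tested and 0 were called, with 5 higher and 2 lower at an unadjusted p below 0.05. No tested member separated the groups (0.196% of all contigs upward and 0.287% downward). The median log2 fold change was 0.12 over the members that passed the filter and 0.02 over all contigs. The members' median was 0.06 without the filter and in the fit of all 24 libraries. It was 0.06, 0.07, 0.05 and 0.08 without eel 5, 6, 7 and 10, and 0.09 to 0.13 without any other eel. With library totals it was 0.18 (0.08 over all contigs), and with counts summed by label 0.17 (0.01 over all labels). DESeq2 and limma-voom both gave 0.12.

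The silent subunit contig kcng3.3.3 read 0.351 ± 0.0951 CPM in control liver (0.210 to 0.454, median 0.356) and 0.880 ± 0.473 CPM in gold-fed liver (0.256 to 1.63, median 0.856), from 6 to 55 reads per library. Gold-fed eel 8 lay within the control range and the other gold-fed eels above it (1.33, SE 0.40, adjusted p = 0.423). cacna2d3 read 0.570 ± 0.130 CPM in control liver (0.384 to 0.755, median 0.559) and 1.23 ± 0.758 CPM in gold-fed liver (0.562 to 2.36, median 0.989). Here gold-fed eels 7, 8 and 12 lay above the control range (1.13, SE 0.39, adjusted p = 0.474).

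kcnb2, at 0.88 (SE 0.34), and cacna1h.1.2, at 0.41 (SE 0.16), were the others at an unadjusted p below 0.05. cacna1h.1.2 was well covered in liver, with 5.80 ± 0.851 CPM without gold and 7.61 ± 1.25 CPM with it, and overlapping ranges. Next came cacna1d.5.5 at 0.92 and cacna1e.3.4 at 0.77, and on the lower side kcnc4.1.2 at -0.99, cacnb1 at -0.84, kcnc2 at -0.82, cacna1h.2.2 at -0.47, kcnh6 at -0.41 and kcnj6.1.2 at -0.41. Several of the latter moved when 1 eel was left out. kcnc4.1.2 stood at -1.61 without eel 7 and kcnc2 at -0.44 without eel 5. cacna1h.2.2 stood at -0.76 without eel 7, -0.29 without eel 8 and -0.31 without eel 11, and kcnh6 at -0.18 without eel 2 and -0.22 without eel 11. Of the contigs higher in liver than in brain, kcnt1 stood at 0.29 (SE 0.19), kcnk6 at 0.26 (SE 0.16), kcnc4.2.2 at -0.27 and KCNQ1 at 0.77 (SE 0.61). The neuron list summed to 20.3 ± 2.39 CPM in control liver and 21.3 ± 2.71 CPM in gold-fed liver, and a list of 14 leukocyte contigs to 254 ± 33.9 and 191 ± 53.4 CPM; their part in the channel values was not tested.

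**Figure D4:**
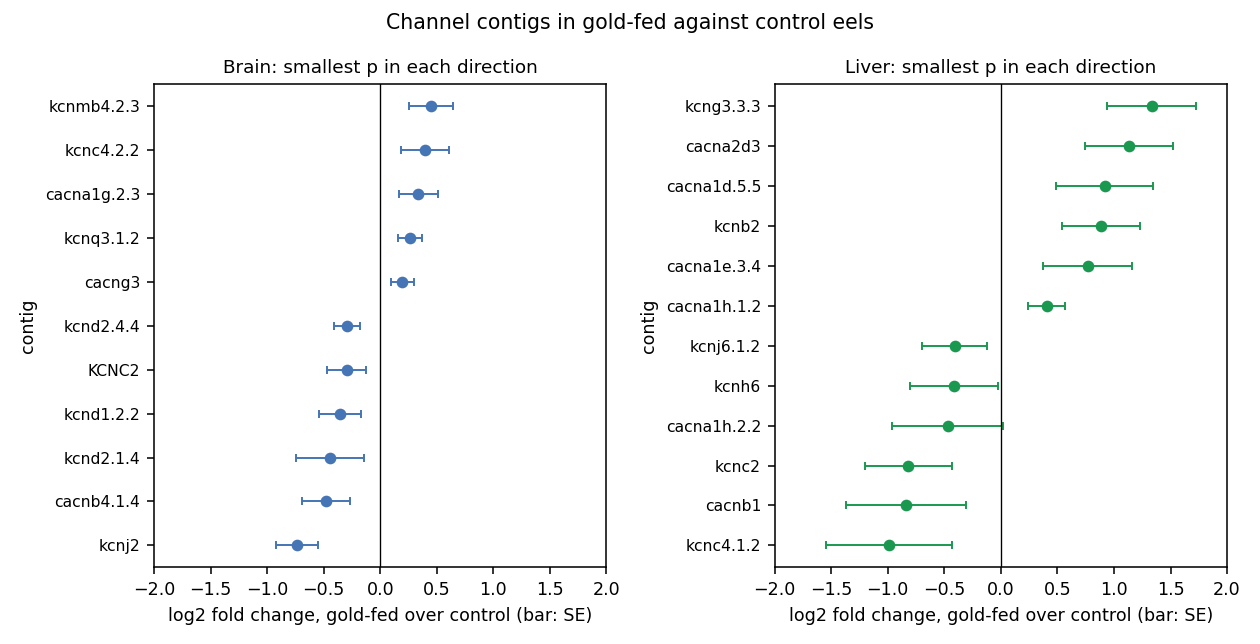
Log2 fold change of gold-fed over control eels with its SE (x axis) for channel contigs of smallest p in each direction (y axis), in brain and in liver. The brain values lie between -0.74 and 0.45 and the liver values between -0.99 and 1.33, and edgeR called none of them.

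The response to gold was also compared between the tissues, as liver minus brain. edgeR called 0 of 112 members (0.00595% of all contigs) and 12 had an unadjusted p below 0.05 (6.77% of all contigs), 6 in each direction. There were 5 higher and 1 lower with the eel as a block, and 11 higher and 3 lower with library totals. DESeq2 and limma-voom called 0 members, with 16 and 10 at an unadjusted p below 0.05. Over all 50455 contigs tested they called 136 and 2, where edgeR called 3. The share of 6.77% is for the main edgeR fit only. Several of the 12 members rested on very few liver reads. cacnb4.4.4 had at most 9 reads in a control liver and 2 in a gold-fed liver, 5 of which had 0 reads, kcnn3.1.4 had 3 reads in the 6 control livers and 43 in the 6 gold-fed livers, and cacng3 had at most 3 reads in any liver. Among the contigs with more reads, kcng3.3.3 stood at 1.11 (SE 0.41, adjusted p = 0.568), cacna2d3 at 0.98 (SE 0.39, adjusted p = 0.600) and cacnb1 at -1.20 (SE 0.52, adjusted p = 0.662). kcnmb4.1.3 stood at -1.93 and cacnb4.1.4 at 1.80, both with liver reads of 11 or fewer in each library. The median over all contigs was 0.00, and 0.12 with library totals.

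Channels differed in how steady they were between eels. The median SD was 18.7% of the mean in control brain and 18.9% in gold-fed brain, and 55.3% and 56.4% in control and gold-fed liver, where many members had few reads. kcnab1 varied most in brain, from 12.3 to 61.4 CPM in control eels (median 27.7) and from 11.1 to 62.3 CPM in gold-fed eels (median 42.5). Both groups spanned a similar range, and no other member of brain varied by as large a share of its mean. In gold-fed brains scn8a.2.3, scn8a.3.3 and cacna1h.1.2 were highest in eel 10, at 72.5, 70.9 and 62.9 CPM. The neuron marker list was highest in that brain too, at 1482 CPM where the other brains of gold-fed eels lay at 965 to 1225 CPM, and the leukocyte list lowest, at 45.6 CPM; their part in these values was not tested. The 3 contigs of kcnma1a moved together across livers. They were highest in eel 1 and lowest in eel 2 among control livers, at 32.4 and 9.77 CPM for kcnma1a.3.3, and lowest in eel 9 among gold-fed livers, at 4.15 CPM.

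**Figure D5:**
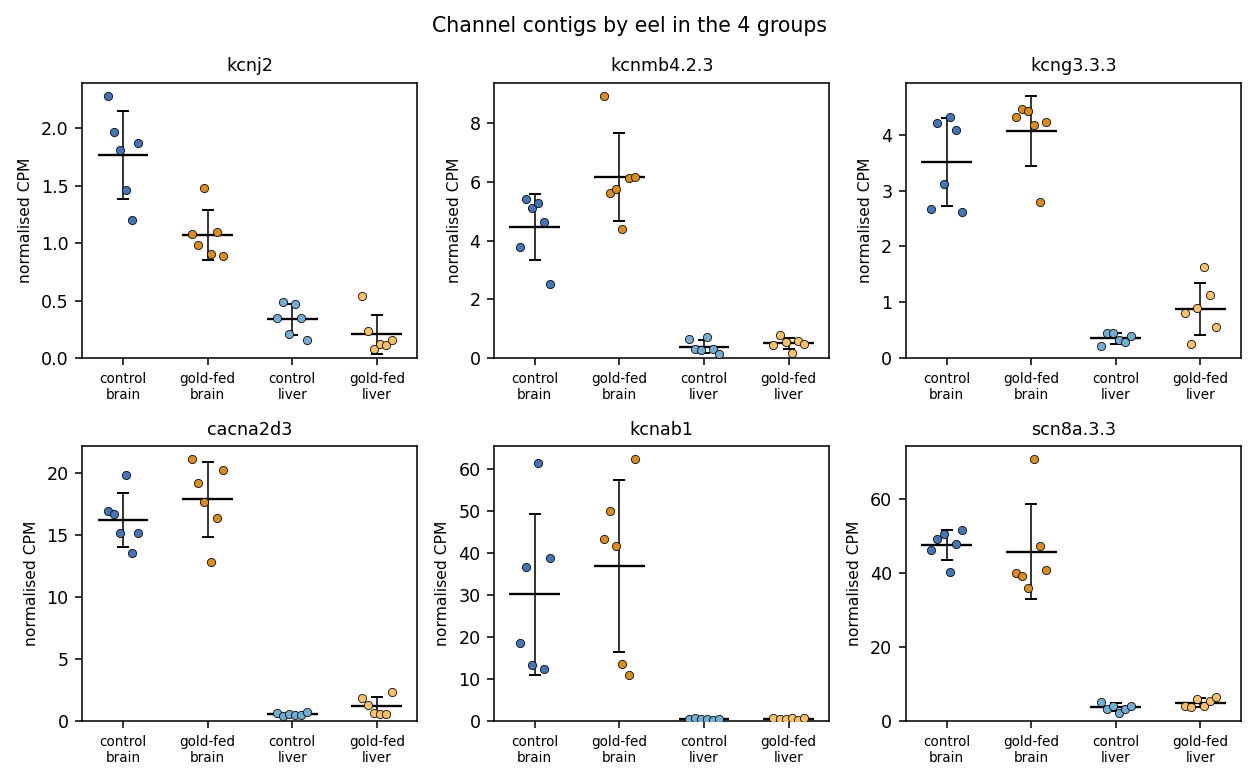
Normalised CPM (y axis) of 6 channel contigs in each library of the 4 groups; points are eels, horizontal lines means and bars SD over 6 eels. kcnj2 is lower and kcnmb4.2.3 higher on average in gold-fed than in control brain with overlapping ranges, kcng3.3.3 and cacna2d3 spread more in gold-fed than in control liver, and kcnab1 spans 11.1 to 62.3 CPM in brain.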

How the data were processed

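RNA came from a Promega column kit and libraries from the TruSeq kit, per the labels' protocols. The authors deposited counts of reads per contig, not normalized, since all are whole and library totals differ. The authors used BWA 0.7.12 and SAMtools 1.1, per the submitters' processing notes. The assembly, annotation, counting rule, strandedness and filters were not given in the sources used here. Tests used edgeR 4.0.16 in R 4.3.3 (its quasi-likelihood test with TMM factors and the filterByExpr filter) over all contigs, two-sided, at an adjusted p (Benjamini-Hochberg) below 0.05. The scripts were tested on simulated data. SE values were derived from the F statistic. Gold-fed and control eels were compared in the 12 libraries of a tissue, liver and brain in the 12 libraries of a diet, and the difference between responses in all 24. Liver and brain of the same eel pair, per the labels, and deviations from group means correlated at 0.283 to 0.490 within eels, best with the own eel for 12 of 12. The main tests have no term for the eel, so those between the tissues leave this pairing out. P-values measure the spread between eels within each group, and whether tanks were shared is not given. No 2 libraries of a group were duplicates (lowest chi-square per degree of freedom 66.7).

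Alternatives were library totals, DESeq2 1.42.0, no filter, limma-voom 3.58.1, counts summed by label, the eel as a block, a fit of all 24 libraries, leaving out each eel, and other expression thresholds; library totals for summed reads were added after the data were seen. Of the 66 labels, 26 equalled a symbol of the RefSeq gene table of the species (assembly fAngAng1.pri). Named contigs were the 6 of smallest p per direction in each gold comparison, 4 per direction in the difference between tissues, the 8 called contigs of largest fold in each direction between tissues with a mean of at least 1 CPM in the higher tissue, the most read contig of each family, and the contigs of a label called in opposite directions. Other named contigs were chosen after their values were seen. A few channels enter the counts and are not reported by name here. The members and lists were chosen with earlier results of these data known. Marker lists for muscle, heart and pituitary matched no contig. Among the other lists, the 11 contigs of astroglia and myelin summed to 1644 CPM in control brain and 25.6 CPM in control liver, and the 2 of pancreatic islet to 1.37 and 0.0460 CPM. Intervals cover counting error only.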

Additional observations from a re-analysis of the deposited data

Results flagged for a closer look

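A gap rule for groups of 6 (the distance of the highest or lowest eel to its nearest neighbour, over the range, above Dixon's critical value) marked 20 of 200 groups checked, where chance marks about 1 in 20. In gold-fed brain these were kcnj2 in eel 9 at 1.479 CPM, cacng3 and cacna1g.2.3 in eel 12 at 2.918 and 15.48 CPM, and kcng3.3.3 in eel 11, which was low at 2.796 CPM. In control brain cacna1h.1.2 was low in eel 1 at 30.46 CPM, the summed inward rectifiers were high in eel 4 at 75.82 CPM, and the summed silent subunits were low in eel 6 at 22.77 CPM.

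In control liver kcnc4.2.2 was high in eel 6 at 323.8 CPM, as was the summed Kv3 family at 324.5 CPM, which it makes up. Eel 1 was high for kcnd2.3.4 at 1.05 CPM, kcnn3.4.4 at 1.505 CPM, the summed SK family at 3.185 CPM and kcnd1.2.2 at 0.07 CPM, the last with 0 in the other 5. kcnh2b was at 0.03931 CPM in eel 4, cacnb4.4.4 at 0.314 CPM in eel 2, and the summed leak channels at 12.73 CPM in eel 5. In gold-fed liver eel 7 was high for kcnc4.1.2 and kcnn3.1.4, both at 0.7282 CPM, and for cacnb4.4.4 and cacng3, both at 0.05394 CPM, with 0 in the other 5.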

How the results depend on the processing

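Directions and calls of the counts held under most alternatives. With library totals 1 member was higher in liver in control eels and 1 in gold-fed eels, kcnt1 turned to -0.52 and kcnk6 to -0.48 in control eels, 11 members were expressed in gold-fed liver, and summed reads of the members were 2646 CPM (control) and 2658 CPM (gold-fed) in brain and 149 and 157 CPM in liver; this follows from the TMM factors. Over all contigs the split was 17380 higher in liver and 19963 in brain with TMM factors, and 5412 and 38821 with library totals. Counts summed by label, with 69 labels since letter case was kept, gave 64 higher in brain in control eels and 63 in gold-fed eels. Over all labels tested, 16742 of 41354 were higher in brain in control eels and 16590 of 41377 in gold-fed eels. Of the 69 labels, 64 and 63 were expressed in brain. These counts are lower since there are fewer labels than contigs. In gold-fed liver 28 members were expressed at 0.5 CPM and 11 at 2 CPM. The share of all contigs expressed was taken only at 1 CPM with TMM factors. In brain DESeq2 called 1 member lower in gold-fed eels, where it called 178 of all contigs and edgeR 1; the cause was not tested. In liver the fit of all 24 libraries called 0 members and 229 of all contigs, with a smallest adjusted p of 0.0553 among the members.

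With the eel as a replicate block, 105 members were higher in brain and 4 in liver in control eels, 107 and 4 in gold-fed eels, and 0 were called in the difference between tissues, with 6 in place of 12 at an unadjusted p below 0.05 (5 higher and 1 lower in place of 6 and 6) and 1 in place of 3 called over all contigs. The pairing moved no count of members called between the tissues by more than 1.5 times. When each eel was left out, 104 to 106 members were higher in brain and 4 in liver in either diet. Of the 49737 to 49859 contigs tested in these fits, 18991 to 20195 were higher in brain and 15734 to 16996 in liver. For gold feeding 0 members were called, and 1 to 4 of all contigs in brain and 0 to 3 in liver. Liver reads limit what can be seen: 37 members had 0 reads in at least 1 control liver and 31 in at least 1 gold-fed liver.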
